A study of Mus musculus with 8 samples.

Results

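The stem cell heptad is a group of transcription factors that bind together at many enhancers of blood stem and progenitor cells. It consists of Runx1, Gata2, Tal1, Lyl1, Lmo2, Fli1 and Erg. With their close partners Ldb1, Cbfb and Etv6 they made a set of 10 genes, taken by symbol from the 24346 gene symbols of the deposited expression files. All 10 symbols were found in every library, and all 10 passed the filter on low values, for which FPKM (fragments scaled by transcript length and library size) had to reach 1 in at least 2 libraries and which kept 12003 genes. The study cultured hematopoietic stem cells (HSCs) and LSK cells with or without red blood cells (RBCs) to ask how RBCs act on blood stem cells, and RNA was sequenced from 8 libraries, 2 in each of 4 groups.

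HSCs were wild-type mouse bone marrow cells in the gate Lin- Sca-1+ c-Kit+ CD48- CD150+. LSK cells were wild-type bone marrow cells in the wider gate Lin- Sca-1+ c-Kit+, which also holds multipotent progenitors. The HSC and LSK groups were cultured alone, and the HSC+RBC and LSK+RBC groups were cultured together with RBCs. All 4 groups were primary cells of adult C57BL/6 mice of either sex, kept for 1 day with thrombopoietin and stem cell factor. The added RBCs had been passed through a leukocyte filter and irradiated, and CD45+ cells were sorted again after lysis of red cells, so each library reflects what that sort retained. Nothing in the sources says that the 2 libraries of a group came from separate mice or cultures, so the p-values below measure only the spread between these libraries, which may be technical.

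The members work as physical assemblies on DNA. Tal1 and Lyl1 are basic helix-loop-helix factors that bind E-box sequences with E proteins, Gata2 binds GATA sequences, and Lmo2 is a LIM-only bridge that binds no DNA itself and joins these factors to Ldb1, the LIM domain binding protein that lets enhancers meet promoters. Runx1 binds DNA with Cbfb, its non-DNA-binding partner, while Fli1, Erg and Etv6 belong to the ETS family, in which Fli1 and Erg mostly activate and Etv6 mostly represses. Runx1, Gata2, Tal1 and Lmo2 are each needed for normal blood formation in the mouse embryo, and Etv6 and Erg are needed to maintain adult HSCs.

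Promoter sequence is shown for 3 members, Tal1, Gata2 and Cbfb, because these were among the members lower in LSK cells than in HSCs. Each run is the 250 bases before the most upstream start of the gene, 5′ to 3′, from RefSeq on build GRCm38.p6. The Tal1 window is chr4:115056176-115056425 on the plus strand, the Gata2 window is chr6:88193641-88193890 on the plus strand, and the Cbfb window is chr8:105170424-105170673 on the plus strand. Capitals mark matches, on either strand, to a GATA motif (AGATAA), an E-box (CAGNTG), an ETS core (GGAAG) or a RUNX motif (TGNGGT).
Tal1: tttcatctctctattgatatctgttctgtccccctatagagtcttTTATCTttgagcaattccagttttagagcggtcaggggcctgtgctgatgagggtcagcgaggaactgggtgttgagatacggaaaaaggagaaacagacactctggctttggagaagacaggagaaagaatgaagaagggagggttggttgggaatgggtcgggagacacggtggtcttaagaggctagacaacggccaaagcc
Gata2: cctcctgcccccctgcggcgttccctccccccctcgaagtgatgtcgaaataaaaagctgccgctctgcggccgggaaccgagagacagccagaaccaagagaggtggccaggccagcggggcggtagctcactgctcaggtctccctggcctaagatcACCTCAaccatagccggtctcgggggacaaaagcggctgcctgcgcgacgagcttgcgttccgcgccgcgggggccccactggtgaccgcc
Cbfb: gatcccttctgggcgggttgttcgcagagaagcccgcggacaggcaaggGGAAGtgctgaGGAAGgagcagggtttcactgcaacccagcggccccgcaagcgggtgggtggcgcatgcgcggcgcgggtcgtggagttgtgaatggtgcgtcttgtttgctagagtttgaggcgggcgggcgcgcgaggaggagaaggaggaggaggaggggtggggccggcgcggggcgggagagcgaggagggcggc
The Tal1 window held 1 GATA match, which began at base -205 from the start. In the Gata2 window there was 1 RUNX match, at base -91. The Cbfb window held 2 ETS matches, at bases -201 and -190. None of these matches overlapped another. Over 32851 mouse promoter windows of the same length, 9.99% held the GATA motif, 44.8% the E-box, 64.1% the ETS core and 40.1% the RUNX motif. RefSeq windows were found for 8 of the 10 members (15 windows, not for Lmo2 or Fli1), and 3, 4, 8 and 3 of the 15 held the GATA, E-box, ETS and RUNX motifs. The matches are a description of the letters and were not tested for binding.

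Across the series, the 8 libraries had between 14829 and 16551 genes above 0, and their relative depth, read from the step size of low values, ranged from 0.886 to 1.13 of 1 reference library; the absolute depth is unknown. Markers that tell the gates apart went with the labels. The summed level of 6 HSC markers was 155 to 158 FPKM in HSC and 86.2 to 87.0 in LSK, and 6 were called lower in LSK cells without RBCs and 3 with RBCs, while Cd48, Flt3 and Cd34, which mark multipotent progenitors, were all called higher in both conditions. Of 3 genes of the gate that HSCs and LSK cells share, none was called without RBCs in limma (2 at an unadjusted p under 0.05), while with RBCs 2 were called higher in LSK cells and 1 lower. The lower one was Ly6a, which encodes Sca-1, at a mean of 632 FPKM in HSC+RBC and 187 in LSK+RBC (-1.74, SE 0.219, adjusted p = 0.000798). Markers of mature blood cells moved in different directions with RBCs. Erythroid markers (7 genes, with the mature red cell gene Slc4a1 under 1 FPKM in every library) summed to 14.4 to 16.3 FPKM in HSC, 105 to 135 in HSC+RBC, 11.2 to 11.5 in LSK and 49.8 to 58.8 in LSK+RBC. Neutrophil markers (6 genes) summed to 4.61 to 6.98, 41.5 to 247, 120 to 208 and 343 to 547 FPKM in the same order. Both sums were higher with RBCs in either cell type. Monocyte and macrophage markers (6 genes, with Adgre1 and Mrc1 under 1 FPKM in every library) summed to 402 to 432, 326 to 327, 273 to 358 and 466 to 576 FPKM, lower with RBCs in HSCs and higher in LSK cells. Most of this sum was Lyz2, at means of 317, 219, 246 and 397 FPKM in the same order. In HSCs 3 of the 6 markers had a higher mean with RBCs, and the 1 called there was higher. T cell markers (5 genes, 4 of them under 1 FPKM in every library) summed to 10.2 to 12.2, 13.3 to 13.9, 14.9 to 15.9 and 13.4 to 14.3 FPKM, and B cell markers (5 genes, 3 of them under 1) to 35.6 to 40.3, 34.7 to 35.8, 38.6 to 41.1 and 49.5 to 51.6 FPKM. Nearly all of the T cell sum was Lck, at means of 11.1, 13.4, 15.1 and 13.4 FPKM. Likewise nearly all of the B cell sum was Cd79b, at 37.4, 34.4, 38.6 and 49.3 FPKM.

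All members were expressed in every library, but at levels that spanned a wide range. Lmo2 was by far the most abundant, at a mean of 375 FPKM over the 8 libraries, rank 288 of 12003 genes. Its binding partner Ldb1 followed at 81.4 FPKM. Gata2 (64.8 FPKM), Cbfb (62.5), Fli1 (57.9) and Etv6 (51.1) formed a middle group, and Runx1 stood at 27.9 FPKM. The lowest levels were those of Lyl1 (13.8 FPKM, rank 6102), Erg (rank 6290) and Tal1 (10.04 FPKM, rank 7046). FPKM is scaled by transcript length, so these levels can be compared roughly between genes. Other gene-specific effects on read yield were not examined.

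Only some neighbours in this order were separated. The ranges over the 8 libraries did not touch between Lmo2 and Ldb1, between Etv6 and Runx1, or between Runx1 and Lyl1. Gata2 exceeded Cbfb in 4 of 8 libraries and Lyl1 exceeded Erg in 5 of 8, so the order of these pairs was within their spread. Ldb1 was above Gata2, and Cbfb above Fli1, in 7 of 8 libraries, while Fli1 was above Etv6 and Erg above Tal1 in all 8 with ranges that overlapped. Over the 8 libraries, the coefficient of variation of the FPKM was largest for Lmo2 (21.0%), Tal1 (17.5%) and Gata2 (16.7%), and smallest for Etv6 (3.66%) and Ldb1 (5.02%).

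**Figure D1:**
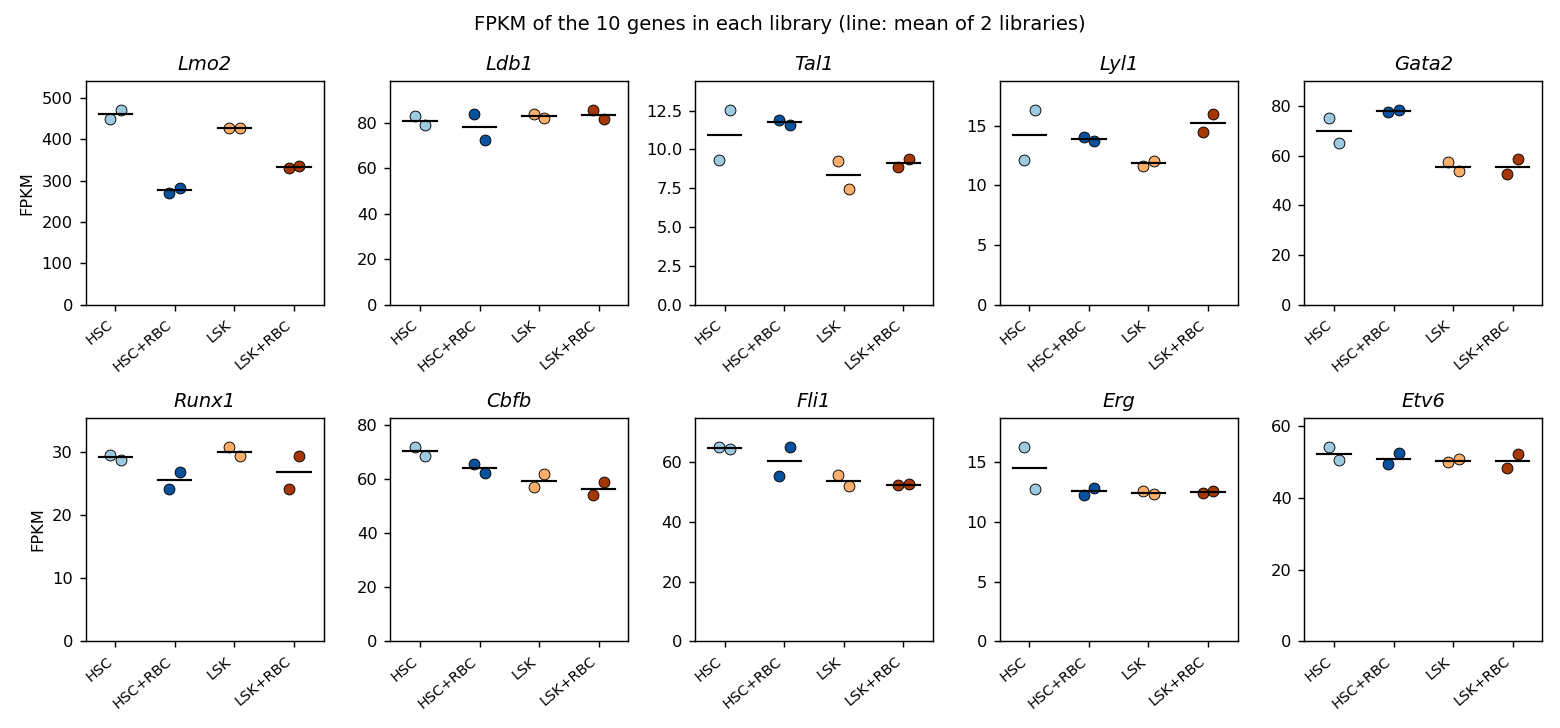
FPKM (vertical axes, each from 0) of the 10 genes in the 2 libraries of each group (points), with the mean of the pair as a line. Lmo2 sits at 451 and 471 in HSC against 271 and 284 in HSC+RBC, whereas Ldb1 stays between 72.5 and 85.5 in all 8 libraries.

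With RBCs, the transcript of the bridging factor Lmo2 fell in HSCs, and the other 9 members did not pass the test. Lmo2 (chr2:103957986-103981878, plus strand, GRCm38) was at 451 and 471 FPKM in HSC and at 271 and 284 FPKM in HSC+RBC. Both libraries with RBCs lay far below both without. The group means were 461 ± 14.3 and 277 ± 8.61 FPKM (SD, n = 2 each), so the mean fell by 39.8%. On the log2(FPKM + 1) scale the difference was -0.73 (SE 0.0583, 95% interval -0.86 to -0.60), with an adjusted p of 0.000379 from limma's moderated test. Among the 10 members 1 was called, and over all 12003 genes 2.53% were called (0.958% in the lower direction). Ranked by signed difference, 115 genes had a larger drop than Lmo2. In bulk samples, fewer cells of a type and less RNA per cell cannot be told apart, which holds for this and each later difference.

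Lmo2 fell in LSK cells as well. It was at 427.6 and 427.7 FPKM in LSK and at 329.8 and 335.5 FPKM in LSK+RBC. The groups were again apart, with the libraries with RBCs lower. The mean went from 428 ± 0.0891 to 333 ± 4.03 FPKM (SD, n = 2 each) and fell by 22.2%. The difference in log2(FPKM + 1) was -0.36 (SE 0.0583, 95% interval -0.49 to -0.23, adjusted p = 0.0127), in a comparison in which 3.45% of all genes were called and 1.13% were called lower. This call depended on each LSK library. Without LSK 1, LSK 2, LSK+RBC 1 or LSK+RBC 2 the difference was -0.36, -0.36, -0.35 and -0.37, with limma's adjusted p at 0.0950, 0.0816, 0.107 and 0.0971. In HSCs, by contrast, leaving out any of the 8 libraries kept the call, with values from -0.76 to -0.70.

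The response of Lmo2 in LSK cells was 0.37 higher (that is, less negative) than in HSCs on the log2(FPKM + 1) scale (SE 0.0825, 95% interval 0.18 to 0.55). This difference between cell types had an unadjusted p of 0.00149 but an adjusted p of 0.156 in limma, so it did not pass. No member was called in that interaction test, which called 0.133% of all genes, and 1 member, Lmo2, had an unadjusted p under 0.05. Averaged over both cell types, the Lmo2 difference was -0.55 (SE 0.0412, 95% interval -0.64 to -0.45, adjusted p = 9.76e-05), and it was again the 1 member called, against 5.37% of all genes (1.99% called lower). Lmo2 was also the 1 member whose 4 libraries with RBCs all lay on the same side of the 4 without, a pattern held by 5.23% of all genes (2.1% with the RBC libraries lower).

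In both cell types Lmo2 was lower with RBCs where the erythroid sum (mostly Hba-a1) and the neutrophil sum (mostly S100a8 and S100a9) were higher. The monocyte and macrophage sum, mostly Lyz2, was lower in HSCs and higher in LSK cells. Between the 2 groups with RBCs, HSC+RBC had the lower Lmo2 and the higher erythroid sum but the lower neutrophil sum. The mast cell and basophil markers (5 genes, Kit among them) summed to 125 to 131 FPKM in HSC and 92.2 to 98.9 in HSC+RBC, and to 162 to 178 in LSK and 149 to 156 in LSK+RBC. Most of these sums was Kit, a gene of the sorting gate, at means of 122, 94.2, 136 and 112 FPKM in HSC, HSC+RBC, LSK and LSK+RBC. In HSC+RBC 0 of the 5 markers had a higher mean than in HSC, and 2 were called lower in limma (0.958% of all genes). Fcer1a had a mean of 4.02 FPKM in HSC and 0.218 in HSC+RBC. In LSK+RBC 3 of the 5 markers had a higher mean than in LSK, among them the mast cell protease Cpa3 (28.1 against 21.9 FPKM, not called). HSC markers summed to 123 to 125 FPKM in HSC+RBC, below the HSC libraries, and none of the 6 was higher there. In LSK+RBC the same markers summed to 86.4 to 96.4 FPKM. The part of these cell types in the Lmo2 difference was not tested.

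**Figure D2:**
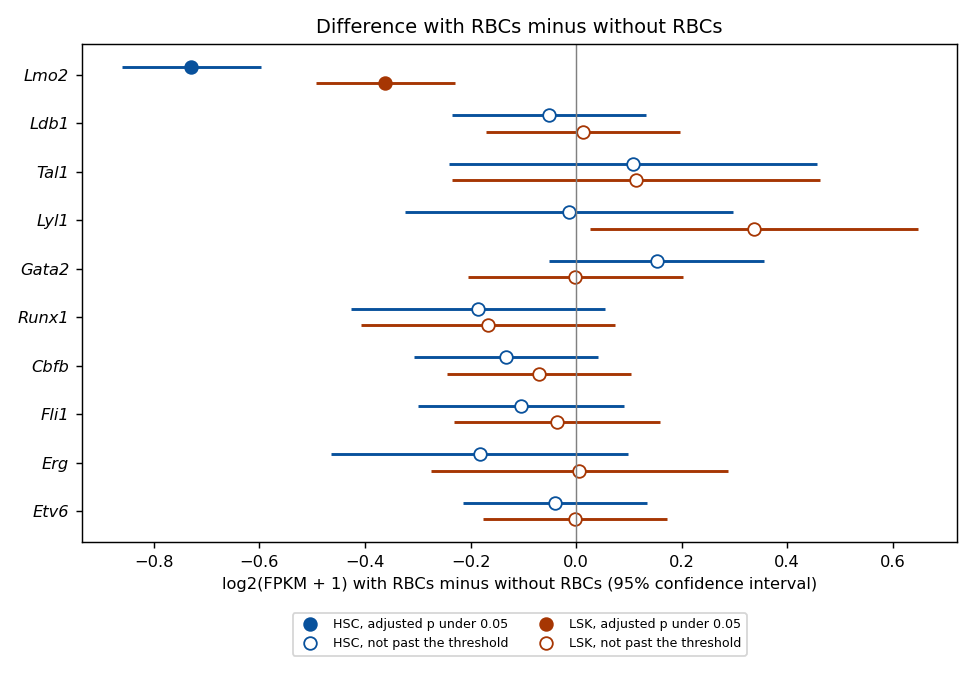
Difference in log2(FPKM + 1) with RBCs minus without RBCs (horizontal axis) for the 10 genes in HSCs (blue) and LSK cells (brown), with 95% confidence intervals as bars and filled points for an adjusted p under 0.05. The filled points are Lmo2 at -0.73 in HSCs and -0.36 in LSK cells, and every other interval includes 0 except that of Lyl1 in LSK cells (0.03 to 0.65), which did not pass after adjustment.

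Genes beside Lmo2 on chromosome 2 gave no call with RBCs. The tested genes with a start or end within 250 kb, looked up after the Lmo2 values had been seen, were Nat10, Caprin1, Fbxo3 and Cd59a. Their differences with RBCs in HSCs were 0.02, 0.01, 0.06 and -0.20 on the log2(FPKM + 1) scale, and in LSK cells -0.08, -0.15, 0.07 and 0.17. None was called in limma, and 1 had an unadjusted p under 0.05, Caprin1 in LSK cells (0.0311). A gene on the opposite strand, 4931422A03Rik, overlaps Lmo2 in the GENCODE M21 annotation and is not among the symbols of the files. The library kit does not mark strand, so reads of the pair cannot be told apart.

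Ldb1, the binding partner of Lmo2, gave no call with RBCs. Its level was 82.9 and 78.9 FPKM in HSC, 84.0 and 72.5 in HSC+RBC, 83.7 and 81.9 in LSK, and 85.5 and 81.6 in LSK+RBC. The libraries with and without RBCs overlapped in both cell types. The difference with RBCs was -0.05 in HSCs (95% interval -0.24 to 0.13) and 0.01 in LSK cells (-0.17 to 0.20). The ratio of Lmo2 to Ldb1 within a library was 5.43 and 5.97 in HSC, 3.23 and 3.91 in HSC+RBC, 5.11 and 5.22 in LSK, and 3.86 and 4.11 in LSK+RBC. The 4 libraries with RBCs were all below the 4 without. Ldb1 overlaps Pprc1 on the opposite strand, and Pprc1 was at 15.1 to 24.1 FPKM, with no call with RBCs and a lower level in LSK cells averaged over conditions (-0.33, adjusted p = 0.00901).

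Among the E-box binding members, Tal1 and Lyl1, no RBC difference was called. Lyl1 was at 11.6 and 12.1 FPKM in LSK and at 14.5 and 16.0 FPKM in LSK+RBC. The groups did not overlap, with the libraries with RBCs higher. The difference of 0.34 (SE 0.138, 95% interval 0.03 to 0.65) had an unadjusted p of 0.0369 and an adjusted p of 0.234 in limma, so it did not pass. In HSCs Lyl1 was at 12.1 and 16.3 FPKM and with RBCs at 14.1 and 13.7 FPKM, inside the range of the first pair (difference -0.013, 95% interval -0.32 to 0.30). Tal1 differed by 0.11 in each cell type (-0.24 to 0.46 in HSCs, -0.23 to 0.46 in LSK cells). Lyl1 overlaps Nfix on the opposite strand, whose level was 3.94 to 5.97 FPKM with no call for RBCs. Runx1, Fli1 and Etv6 overlap antisense genes that are not among the symbols of the files. Fli1, Etv6 and Cbfb also overlap other annotated genes, among them 1700051K13Rik on the strand opposite Etv6. The FPKM of these other genes was not examined.

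Gata2 and the Runx1 pair also stayed below the threshold with RBCs. Gata2 was at 75.2 and 65.0 FPKM in HSC and 77.4 and 78.3 FPKM in HSC+RBC, which was narrowly higher, and the difference was 0.15 (95% interval -0.05 to 0.36, adjusted p = 0.537). In LSK cells the Gata2 difference was -0.0015 (-0.20 to 0.20). Runx1 was at 29.5 and 28.8 FPKM in HSC, 24.2 and 26.9 in HSC+RBC, 30.8 and 29.4 in LSK, and 24.2 and 29.5 in LSK+RBC. The Runx1 libraries with RBCs were lower in HSCs and overlapped those without in LSK cells. Its difference was -0.19 in HSCs (95% interval -0.43 to 0.05) and -0.17 in LSK cells (-0.41 to 0.07). The average over both, -0.18, had an unadjusted p of 0.0439 and an adjusted p of 0.250 in limma. Cbfb differed by -0.13 in HSCs (-0.31 to 0.04) and by -0.07 in LSK cells (-0.25 to 0.10).

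No ETS member was called with RBCs in limma, and none had an unadjusted p under 0.05 in either cell type. Etv6 differed by -0.04 in HSCs (95% interval -0.21 to 0.13) and by -0.0020 in LSK cells (-0.18 to 0.17). For Fli1 the values were -0.10 (-0.30 to 0.09) and -0.04 (-0.23 to 0.16). Erg was at 16.3 and 12.7 FPKM in HSC, and the other 6 libraries all lay between 12.3 and 12.8 FPKM. The Erg difference of -0.18 in HSCs (-0.46 to 0.10) thus rested on the library HSC 1, and was -0.018 without it.

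Counted by overlap alone, 4 of the 10 members had HSC+RBC libraries on one side of the HSC libraries (Lmo2, Runx1 and Cbfb lower, Gata2 higher), a share near the 41.7% of all genes that did so. In LSK cells 2 members did (Lmo2 lower, Lyl1 higher), against 50.7% of all genes. The median difference over the 10 members was -0.08 in HSCs and -0.0017 in LSK cells, beside -0.0062 and -0.0095 over all genes tested. At a 2-fold threshold no member was called in any of these comparisons, in which limma called 0.775% of genes in HSCs and 1.01% in LSK cells.

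Between LSK cells and HSCs, averaged over culture conditions, Gata2, Tal1, Fli1 and Cbfb were lower in LSK cells and no member was called higher. The 4 called of 10 members compare with 32.9% of all genes called, and 16.8% called lower. The median over the 10 members was -0.08, beside 0.0065 over all genes.

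Gata2 (chr6:88193891-88207032, plus strand), a factor needed for HSC emergence and survival, was called lower in LSK cells in both culture conditions. It was at 75.2, 65.0, 77.4 and 78.3 FPKM in the 4 HSC and HSC+RBC libraries, and at 57.4, 53.7, 52.5 and 58.6 FPKM in the 4 LSK and LSK+RBC libraries. The 4 libraries of LSK cells were all below the 4 of HSCs. Averaged over culture conditions the difference in log2(FPKM + 1) was -0.40 (SE 0.0638, 95% interval -0.55 to -0.26, adjusted p = 0.00138). It was -0.33 without RBCs (SE 0.0902, 95% interval -0.53 to -0.12, adjusted p = 0.0410) and -0.48 with RBCs (SE 0.0902, 95% interval -0.69 to -0.28, adjusted p = 0.00527). The difference between these values was -0.15 (95% interval -0.44 to 0.13) and not called.

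The Gata2 call without RBCs was close to the threshold. It was lost without HSC 1 (-0.22), LSK 1 (-0.38) or LSK 2 (-0.28), and without any library of the groups with RBCs (-0.33, adjusted p 0.0503 to 0.0653), whose spread enters the fit. The call with RBCs and the averaged call were kept without any 1 of the 8 libraries. In the comparison without RBCs 1 member was called, against 14.2% of all genes (7.29% called lower). In that with RBCs 2 members were called, Gata2 lower and Lmo2 higher, against 24.4% of all genes (12.5% lower and 11.9% higher).

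Tal1 (chr4:115056426-115071755, plus strand) was at 9.34, 12.5, 11.9 and 11.6 FPKM in the HSC and HSC+RBC libraries and at 9.28, 7.47, 8.84 and 9.36 FPKM in the LSK and LSK+RBC libraries. The highest LSK+RBC library was just above the lowest HSC library, so the cell types overlapped. The averaged difference was -0.34 (SE 0.109, 95% interval -0.58 to -0.09, adjusted p = 0.0407). It was -0.34 in each culture condition, where it did not pass (adjusted p 0.182 without and 0.147 with RBCs). The averaged call was lost without 6 of the 8 libraries (HSC 2, LSK 2 and all 4 with RBCs), with values from -0.36 to -0.24. Lyl1, the close relative of Tal1, gave -0.05 (95% interval -0.27 to 0.17).

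The ratio of Tal1 to Lyl1 within a library was 0.773 and 0.768 in HSC, 0.846 and 0.842 in HSC+RBC, 0.801 and 0.618 in LSK, and 0.610 and 0.587 in LSK+RBC. The pair of libraries in HSC+RBC was the highest and that in LSK+RBC the lowest.

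Fli1 (chr9:32422204-32542861, minus strand), an ETS activator of megakaryocyte and endothelial genes, was at 65.0 and 64.5 FPKM in HSC, 55.5 and 65.2 in HSC+RBC, 55.8 and 51.9 in LSK, and 52.3 and 52.7 in LSK+RBC. The LSK libraries overlapped the HSC libraries through HSC+RBC 1. The averaged difference was -0.23 (SE 0.0612, 95% interval -0.37 to -0.09, adjusted p = 0.0197), made up of -0.26 without RBCs (adjusted p = 0.0778) and -0.19 with RBCs (adjusted p = 0.137). It was lost without HSC+RBC 2 (-0.17), LSK 2 (-0.20), LSK+RBC 1 (-0.22) or LSK+RBC 2 (-0.23). Megakaryocyte and platelet markers (7 genes), several of them known Fli1 targets, summed to 208 to 247 FPKM in HSC, 214 to 230 in HSC+RBC, 117 to 214 in LSK and 97.1 to 110 in LSK+RBC. The sum was lowest in LSK+RBC, where Pf4 had a mean of 16.3 FPKM, against 131 in HSC, 104 in HSC+RBC and 83.7 in LSK. The 2 LSK libraries were far apart in Pf4, at 130 and 37.8 FPKM. Of the 7 markers, 3 had a higher mean in LSK+RBC than in LSK, and 0 had a higher mean than in HSC+RBC. Without RBCs 4 of the 7 had a higher mean in LSK than in HSC, while 2 were called lower in limma (7.29% of all genes). The median difference of the 7 markers in that comparison was 0.02. The part of these markers in the Fli1 difference was not tested.

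The other ETS members showed no call between the cell types. Erg gave an averaged difference of -0.10 (95% interval -0.30 to 0.10) and Etv6 one of -0.03 (-0.16 to 0.09). The ratio of Fli1 to Erg was 3.996 and 5.07 in HSC, 4.52 and 5.07 in HSC+RBC, 4.44 and 4.21 in LSK, and 4.21 and 4.18 in LSK+RBC. The HSC pair spanned both LSK groups, while both HSC+RBC libraries were above all 4 LSK and LSK+RBC libraries. Endothelial markers (6 genes, with the defining Cdh5 and Kdr under 1 FPKM in every library) summed to 95.8 to 106 FPKM in HSC, 101 to 106 in HSC+RBC, 93.6 to 108 in LSK and 110 to 122 in LSK+RBC. Within this list members went opposite ways between LSK cells and HSCs without RBCs, where 3 were called lower (Tek, Emcn and Tie1) and 1 higher (Pecam1, at a mean of 30.2 FPKM in HSC and 55.3 in LSK), with a median of -0.60 over the 4 tested. Their part in the differences of the ETS members was not tested.

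Cbfb (chr8:105170674-105217989, plus strand) was at 71.9 and 68.5 FPKM in HSC, 65.5 and 62.4 in HSC+RBC, 57.0 and 61.8 in LSK, and 54.2 and 58.8 in LSK+RBC. As with Gata2, all 4 LSK libraries were below all 4 HSC libraries, which was seen in 2 of the 10 members and in 13.7% of all genes (27.3% were apart in either direction). The averaged difference was -0.21 (SE 0.0546, 95% interval -0.33 to -0.08, adjusted p = 0.0180), with -0.24 without RBCs (adjusted p = 0.0730) and -0.18 with RBCs (adjusted p = 0.129). It was lost without HSC+RBC 1 (-0.19), LSK 1 (-0.18) or LSK+RBC 1 (-0.18). Runx1, the DNA-binding part of the pair, gave 0.05 (95% interval -0.12 to 0.22). The ratio of Cbfb to Runx1 was 2.43 and 2.38 in HSC, 2.71 and 2.32 in HSC+RBC, 1.85 and 2.103 in LSK, and 2.24 and 1.997 in LSK+RBC. Every LSK and LSK+RBC library was below every HSC and HSC+RBC library in this ratio.

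**Figure D3:**
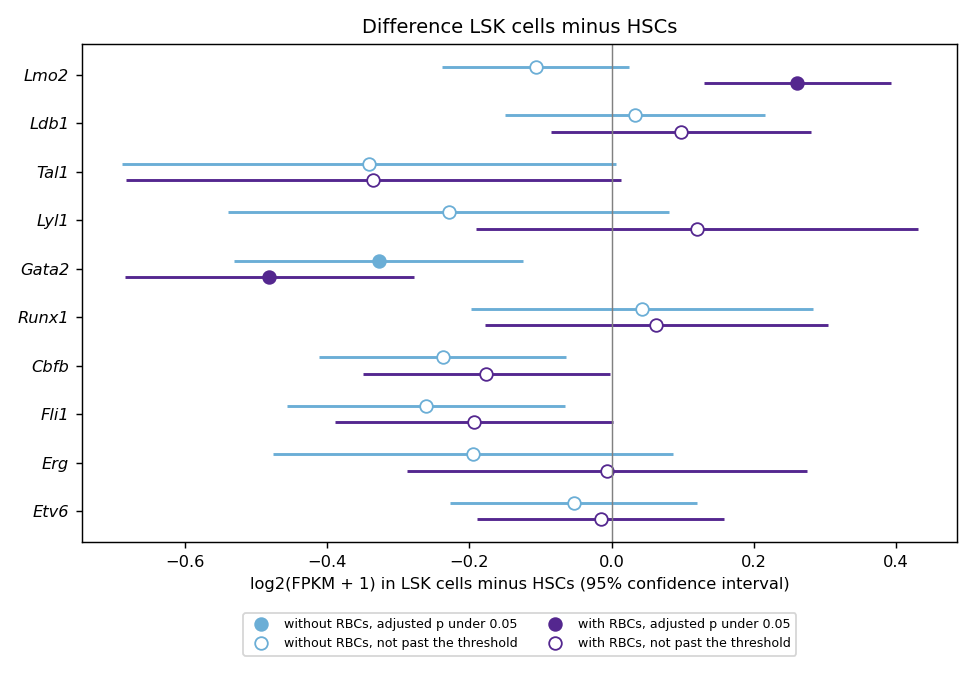
Difference in log2(FPKM + 1) of LSK cells minus HSCs (horizontal axis) for the 10 genes without RBCs (light blue) and with RBCs (purple), with 95% confidence intervals as bars and filled points for an adjusted p under 0.05. Gata2 is filled at -0.33 and -0.48, and Lmo2 is filled only with RBCs, at 0.26.

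The Lmo2 libraries of HSCs were the higher ones without RBCs and the lower ones with RBCs. Without RBCs it was at 451 and 471 FPKM in HSC and 427.6 and 427.7 FPKM in LSK, with a difference of -0.11 (SE 0.0583, 95% interval -0.24 to 0.02, adjusted p = 0.270). With RBCs it was at 271 and 284 FPKM in HSC+RBC and 329.8 and 335.5 FPKM in LSK+RBC, and was called higher in the LSK cells (0.26, SE 0.0583, 95% interval 0.13 to 0.39, adjusted p = 0.0118). The call with RBCs was lost without HSC+RBC 1 (0.23), LSK+RBC 1 (0.27) or LSK+RBC 2 (0.25). These values share their libraries with the RBC differences of Lmo2 above, and the test of a difference between the conditions is the interaction given there, which did not pass.

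By overlap alone, 7 of the 10 members were lower in both LSK libraries than in both HSC libraries (Gata2, Tal1, Lyl1, Lmo2, Fli1, Erg and Cbfb), where 26.9% of all genes were lower in this way and 54.8% were apart in either direction. Some of these gaps were very narrow. The lowest HSC and the highest LSK values were 12.086 and 12.084 FPKM for Lyl1, 9.34 and 9.28 for Tal1, and 12.73 and 12.56 for Erg. In limma 1 member was called without RBCs (14.2% of all genes). At an unadjusted p under 0.05 there were 3 members, and 3445 of the 12003 genes. The median member difference without RBCs was -0.21, beside 0.0085 over all genes. With RBCs 6 members were apart (Gata2, Tal1, Fli1 and Cbfb lower, Lmo2 and Lyl1 higher), against 66.8% of all genes, and the median was -0.01. At a 2-fold threshold limma called no member, and 2.66% and 3.61% of all genes without and with RBCs.

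**Figure D4:**
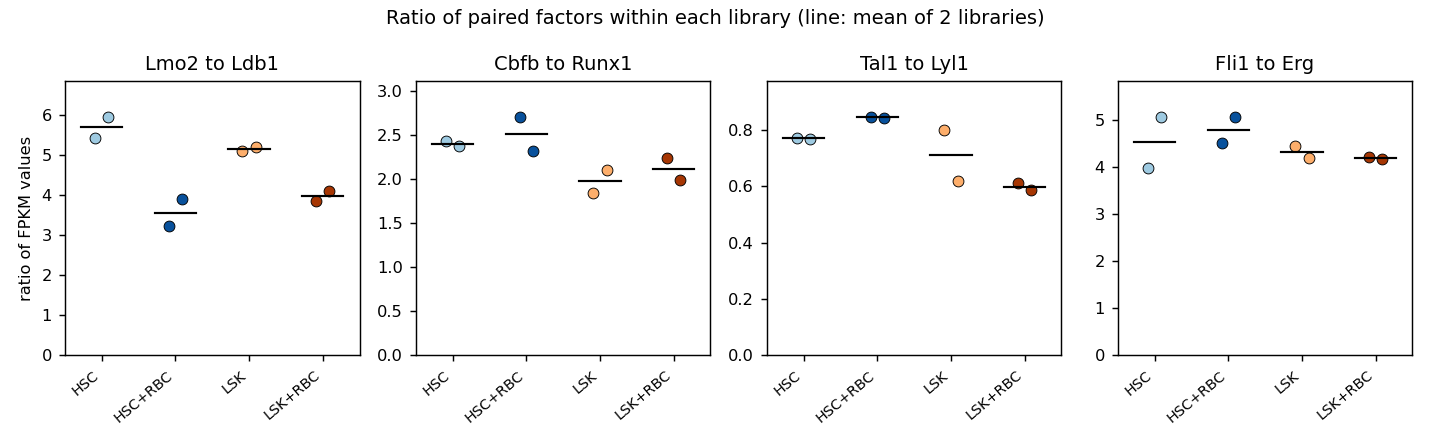
Ratio of FPKM values (vertical axes, each from 0) of 4 pairs of partner or related factors in each library (points), with the mean of 2 libraries as a line. Lmo2 to Ldb1 is 5.11 or more in the libraries without RBCs and 4.11 or less in those with RBCs, and Cbfb to Runx1 is 2.24 or less in LSK cells and 2.32 or more in HSCs.

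The 16 proteins that join the heptad in complexes (E proteins, Ssbp proteins that steady Ldb1, ETO family corepressors, Zfpm1, and chromatin enzymes) were set beside the members. With RBCs none was called in limma in HSCs (2 at an unadjusted p under 0.05) or in LSK cells (1 at an unadjusted p under 0.05), and their medians were -0.02 and -0.01, where 2.53% and 3.45% of all genes were called. Between LSK cells and HSCs 1 of 16 was called without RBCs (14.2% of all genes), Hdac1, a histone deacetylase, which was lower (-0.25, SE 0.0618, adjusted p = 0.0260). With RBCs 3 of 16 were called (24.4% of all genes), all lower, Ssbp4 (-0.47, SE 0.0801, adjusted p = 0.00342), Ssbp3 (-0.41, SE 0.120, adjusted p = 0.0366) and Hdac1 (-0.31, SE 0.0618, adjusted p = 0.00719). The median of the list in that comparison was 0.13.

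Of 18 family relatives of the members, 16 were tested, while Tal2 was at 0 in every library and Ldb2 was under the filter. With RBCs none was called in HSCs (4 at an unadjusted p under 0.05) or in LSK cells (3 at an unadjusted p under 0.05) in limma. Averaged over cell types, 1 of the 16 was called, where 5.37% of all genes were. It was Gata1, the erythroid GATA factor, which was higher with RBCs (0.60, SE 0.127, adjusted p = 0.0281). The erythroid marker sums given above were mostly Hba-a1 in the groups with RBCs. Of the 5 erythroid markers tested, 2 were called higher with RBCs in HSCs (Hba-a1 and Alas2) and 1 in LSK cells (Hba-a1). Klf1 and Epor were not called with RBCs in either cell type.

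Lmo1, the paralog of Lmo2, was at 10.2 and 10.1 FPKM in HSC, 3.98 and 3.97 in HSC+RBC, 1.78 and 1.97 in LSK, and 1.42 and 4.12 in LSK+RBC. The HSC libraries stood above all others. It was lower in LSK cells than in HSCs without RBCs (-1.96, SE 0.287, adjusted p = 0.00250), while its difference with RBCs in HSCs, -1.16 (SE 0.287), had an adjusted p of 0.0797 and was not called. Between the cell types 4 of the 16 relatives were called without RBCs, beside 14.2% of all genes, and 3 of 16 with RBCs, beside 24.4%. Also called without RBCs were Runx3 (0.84, SE 0.165) and the ETS factor Elf1 (0.38, SE 0.0748), higher in LSK cells, and Ets2 (-0.60, SE 0.149), lower. With RBCs, Runx2 (0.60, SE 0.151) and Elf1 (0.41, SE 0.0748) were higher and Ets2 (-0.59, SE 0.149) lower.

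Of 12 genes known as targets of heptad factors, 3 were called with RBCs in HSCs, where 2.53% of all genes were. Cd34, a surface sialomucin of progenitors, rose from 324 and 316 FPKM to 476 and 455 FPKM (0.54, SE 0.0635, adjusted p = 0.00280). Spi1, the myeloid and lymphoid ETS factor PU.1, rose from 70.3 and 63.2 to 88.7 and 84.1 FPKM (0.37, SE 0.0722, adjusted p = 0.0315). Kit, the stem cell factor receptor that is also part of the sorting gate, fell from 126 and 118 to 97.6 and 90.8 FPKM (-0.37, SE 0.0668, adjusted p = 0.0214). In LSK cells none of the 12 was called in limma, where 3.45% of all genes were, and 4 had an unadjusted p under 0.05.

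Between the cell types without RBCs, 5 of the 12 targets were called higher and 3 lower in LSK cells, in a comparison that called 14.2% of all genes. Mecom (-0.81, SE 0.105) was among the lower targets, and Cd34 (0.72, SE 0.0635) and Gfi1b (0.58, SE 0.0754) were among the higher ones. With RBCs 6 were called higher and 2 lower, where 24.4% of all genes were called, led by Gfi1b (0.90, SE 0.0754), Mecom (-0.87, SE 0.105), Hhex (0.57, SE 0.0638) and Myb (0.53, SE 0.0765). Mecom is also among the HSC markers and Cd34 among the progenitor markers used to check the gates, so their direction is not independent of that check. The list medians were 0.09 and 0.28, beside 0.0085 and 0.0075 over all genes.

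**Figure D5:**
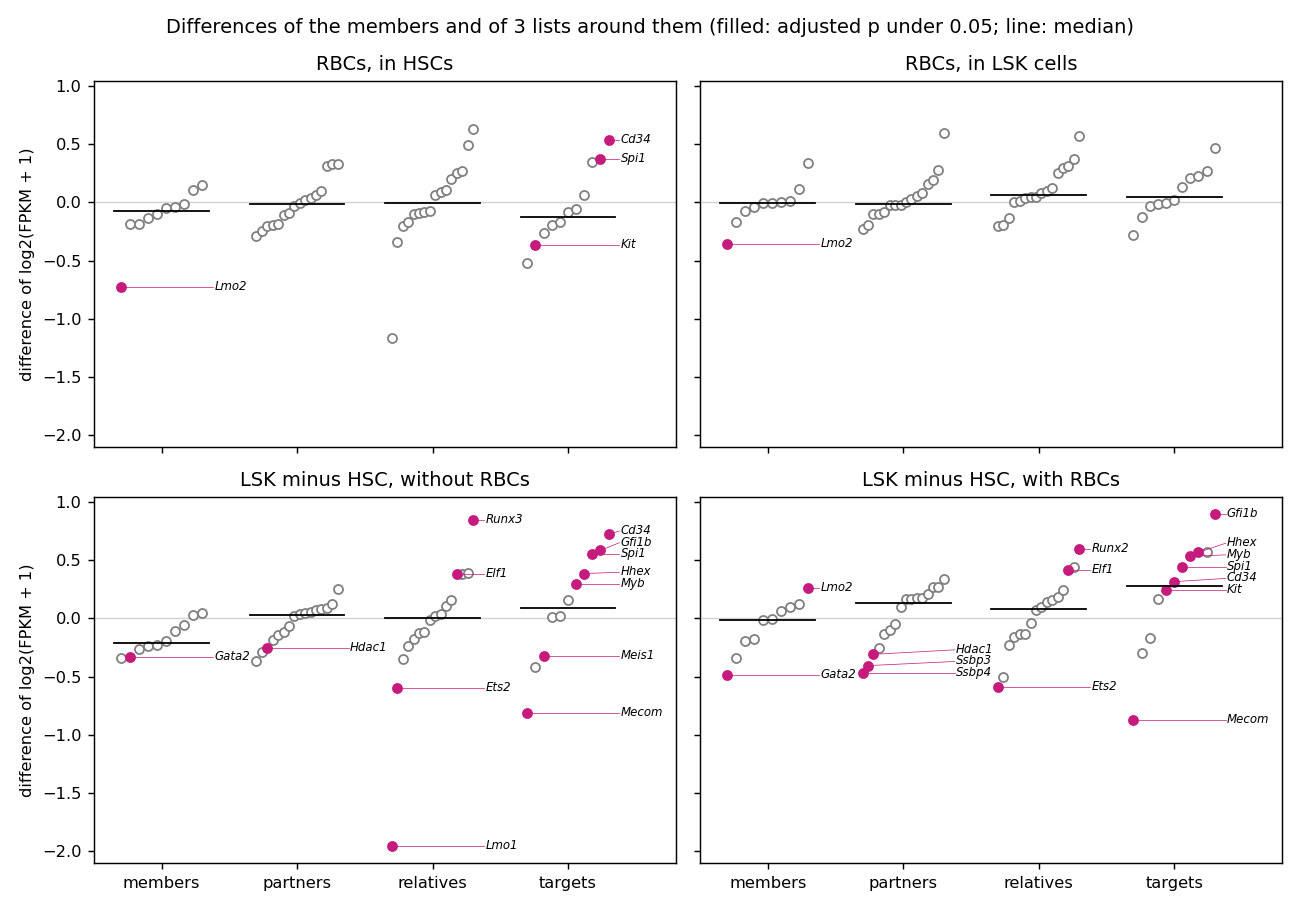
Difference in log2(FPKM + 1) (vertical axes) of the 10 members, 16 complex partners, 16 family relatives and 11 of the 12 targets in 4 comparisons, each gene a point, with the median of the whole list as a line and genes past an adjusted p of 0.05 filled and named. With RBCs, Lmo2 is the 1 filled member in both cell types (-0.73 and -0.36), and between cell types the targets run from -0.81 to 0.72 without RBCs.

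The genes whose profile over the 8 libraries was nearest to a called member were found by the root mean square difference of log2(FPKM + 1), each gene centred on its own mean. For Lmo2 these were Cxcl10 (0.0475) and Cited2 (0.0575), against an SD of 0.29 for Lmo2 itself. Gata2 was nearest to Mrpl11 (0.0599) and Zc3hav1l (0.0627). For Tal1 they were Tpgs2 and Krtcap2 (0.0639 each), for Fli1 Micu3 (0.0393) and Leo1 (0.0427), and for Cbfb Arl6ip4 (0.0408) and Zmynd11 (0.0468). No member was among the nearest genes of another called member.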

How the data were processed

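RNA sequencing of 8 libraries was analysed, 2 each of HSC, HSC+RBC, LSK and LSK+RBC, grouped by the sample labels. Values were deposited as FPKM, 1 file a library with 1 line per gene symbol, made by the authors from full-length cDNA (a SMART-Seq HT and Nextera XT preparation that does not mark strand). The submitters' processing notes name TopHat2 2.1.1, Bowtie2 2.2.8, SAMtools 0.1.18, Cuffdiff 2.2.1 and mm10, without their roles; the annotation is not given in the sources used here. FPKM gives no counts, so absolute depth is unknown and no counting interval was made.

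From the deposited FPKM, log2(FPKM + 1) was computed for the 12003 genes that reached FPKM 1 in 2 or more libraries; the pseudocount makes differences of low genes smaller. limma 3.58.1 in R 4.3.3 fitted the 4 group means over all 8 libraries with a mean-variance trend (residual degrees of freedom 4, prior 5.18), with Benjamini-Hochberg adjustment over all 12003 genes. Genes were called at an adjusted p under 0.05. All p-values are two-sided. An exact permutation of 2 against 2 libraries cannot go below 0.333, so none was used. On simulated data for the RBC comparison in HSCs over 12003 genes, 46% of genes changed by 0.5 on the log2 scale were called, 92% of those changed by 1, and 3 unchanged genes. The simulated noise was normal, independent and equal in all groups, with its size taken from the same limma fit. These shares therefore do not cover single deviating libraries or a spread that departs from that fit.

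The members and lists were chosen with earlier results of these data known. All members were named, and of the lists at most the 4 called genes with the largest difference per comparison. Values of 1 target gene and 1 marker gene are not reported here. Neighbouring and overlapping genes were looked up after the values were seen. Gene positions came from GENCODE M21 (GRCm38), the same assembly as mm10, and promoters from RefSeq GRCm38.p6. Alternatives covered the pseudocount, filter, scaling, groups fitted, trend, replicate block, call rule, a two-sample Student test, and leaving out each library in turn.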

Additional observations from a re-analysis of the deposited data

How the results depend on the processing

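With 2 libraries a group, limma borrows its spread from the other groups and genes, and a fit that leaves out 1 library assumes that the lone library left varies like the other groups. The two-sample Student test called 0 genes in every comparison it was run on, with 1137, 1503, 1875 and 3200 genes at an unadjusted p under 0.05 (RBCs in HSCs, RBCs in LSK cells, and LSK cells against HSCs without and with RBCs), of which 1, 2, 1 and 3 were members. Changes of scaling moved the median of all genes by less than 0.03 on the log2 scale. Where a call was lost, the cause was not tested.

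Lmo2 kept its call with RBCs in HSCs under every alternative except the Student test (adjusted p = 0.412) and the 2-fold rule, where the difference was still -0.73. In LSK cells the call was also lost without the trend (adjusted p = 0.0821, difference still -0.36), and limma's members called there then numbered 0, as they did under the Student test and the 2-fold rule. Gata2 lost its call between cell types without RBCs with all genes above 0 (adjusted p = 0.0888), only the 2 groups fitted (0.0956), no trend (0.0986), the replicate block (0.0634), the Student test (0.386) and the 2-fold rule, each giving 0 members, while upper quartile scaling gave 2, with Cbfb added (adjusted p = 0.0489). With RBCs 1 member was called without the trend (Lmo2 lost, adjusted p = 0.0595) and 0 under the Student test or the 2-fold rule. Averaged over conditions, 2 of the 4 members lower in LSK cells stayed called without the trend (Tal1 and Fli1 lost, adjusted p 0.0515 and 0.0513), 3 with all genes above 0 (Tal1 lost, adjusted p = 0.0904), and 0 members at 2-fold for either average. Quantile normalization added Lmo2 (0.19, adjusted p = 0.00349). Directions that turned were all of uncalled members. They were Gata2 and Etv6 with RBCs in LSK cells under upper quartile scaling (0.011 and 0.010), Gata2 (0.029), Erg (-0.035) and Etv6 (0.024) there under quantile normalization, and Lmo2 in LSK cells against HSCs without RBCs under quantile normalization (0.029).

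Over all genes, with 304 called for RBCs in HSCs, the count was 119 with all genes above 0, 170 with only the 2 groups, 162 without the trend, and 93 at 2-fold. For RBCs in LSK cells (414) it was 181, 319, 220 and 121 in that order. For LSK cells against HSCs without RBCs (1707) it was 1117 with all genes above 0, 1042 with the 2 groups, and 319 at 2-fold, and with RBCs (2923) 433 at 2-fold. The interaction (16) gave 29 at pseudocount 5, 2 with all genes above 0, 38 under quantile normalization, 1 without the trend and 10 with the replicate block. The averaged RBC comparison (645) gave 380 with all genes above 0 and 90 at 2-fold, and the averaged cell type comparison (3944) gave 326 at 2-fold.

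Leaving out 1 library at a time gave 103 to 273 genes for RBCs in HSCs, 94 to 499 for RBCs in LSK cells, 834 to 1484 and 1401 to 3190 for LSK cells against HSCs without and with RBCs, 7 to 16 for the interaction, 373 to 569 for the averaged RBC comparison and 2816 to 3646 for the averaged cell type comparison. The members called were 1 to 1, 0 to 1, 0 to 1, 1 to 2, 0 to 0, 1 to 1 and 1 to 4 in the same order. Some uncalled members turned direction when 1 library was left out. With RBCs in HSCs the range was, for Tal1, from -0.086 to 0.30, Lyl1 from -0.21 to 0.19, Fli1 from -0.22 to 0.0094, Ldb1 from -0.16 to 0.053 and Etv6 from -0.090 to 0.0099. With RBCs in LSK cells it was, for Gata2, from -0.079 to 0.076, Tal1 from -0.025 to 0.25, Fli1 from -0.087 to 0.015, Erg from -0.0057 to 0.017, Ldb1 from -0.020 to 0.045 and Etv6 from -0.056 to 0.052. Between the cell types without RBCs it was, for Ldb1, from -0.0025 to 0.068. Between them with RBCs it was, for Runx1, from -0.074 to 0.20, Erg from -0.036 to 0.024, Ldb1 from -0.0073 to 0.20 and Etv6 from -0.070 to 0.039.

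The sources do not say whether libraries with equal replicate numbers were paired. Over all genes tested, the differences between replicates 1 and 2 correlated at -0.0317 (HSC with HSC+RBC), -0.0670 (LSK with LSK+RBC), 0.0954 (HSC with LSK) and -0.0391 (HSC+RBC with LSK+RBC). These values showed little shared shift by number, but cannot tell the origin of the libraries. With the number as a replicate block, 253 genes were called for RBCs in HSCs and 283 in LSK cells, and the averaged Tal1 call was lost (adjusted p = 0.0585).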
